A study of Mus musculus with 12 samples.

Results

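A set of 6 genes that set how a cell sees thyroid hormone were followed in 12 mouse hearts: Dio2, Dio3, Thra, Thrb, Hr and Slc16a10. They were taken by symbol from a table of raw read counts with 24062 gene symbols, and all 6 were found. They were chosen with their levels in these 12 hearts known, so their values in the 3 comparisons below are descriptions without a test. The hearts were whole organs, with 1 library of polyA RNA per mouse and 3 mice per group. Adult WT and adult KI/KI mice were 2 months old. KI/KI mice carried on both alleles, in every cell, the Lemd2 change c.T38>G, made in B6C3F1 zygotes and bred with C57BL/6N mice. The other hearts came from postnatal day 1 (P1). P1 floxed mice carried loxP sites around exon 1 of Lemd2 without Cre, and P1 cKO mice carried the same allele with a Myh6-Cre transgene, which deletes in cardiomyocytes and leaves the gene in the other cells of the heart. Lemd2 encodes a protein of the inner nuclear membrane.

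Thyroid hormone enters cells through membrane transporters, among them Slc16a10 (the monocarboxylate transporter MCT10). Dio2 converts the prohormone T4 to the active hormone T3, and Dio3 inactivates both. T3 binds the nuclear receptors encoded by Thra and Thrb, which act with coactivators or with corepressors, one of which is the Hairless protein encoded by Hr, itself a classical T3 target in brain. In rodents circulating thyroid hormone rises in the first weeks after birth, when the heart replaces fetal by adult sarcomere proteins and ion channels.

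Libraries held between 37063669 and 44789753 counts. Levels are given as CPM, read counts scaled to library depth with normalisation by trimmed mean of M values (TMM) over the 12 libraries, and 3 counts corresponded to 0.0599 to 0.0965 CPM. Lemd2 itself stood at 32.0 to 34.8 CPM in adult WT hearts, 24.8 to 25.6 in KI/KI, 24.3 to 25.4 in P1 floxed and 6.59 to 13.1 in cKO, the lowest of the 4 groups. Summed cardiomyocyte markers lay between 26420 and 38896 CPM in every heart, whereas thymus markers did not exceed 0.695 CPM in sum. Lung epithelium markers summed to 100.4 CPM in WT replicate 3, to 34.7 in KI/KI replicate 4, to 28.3 and 44.6 in floxed replicates 1 and 2 and to 19.0 in cKO replicate 4, and to 3.26 CPM at most in the other hearts. Scgb1a1 gave most of the sum in each replicate named here, at 95.3, 34.1, 23.2, 34.4 and 12.7 CPM. No other listed lung marker exceeded 6.24 CPM in any heart. One mouse, cKO replicate 4, expressed Xist at 612 CPM and the other 11 at 0.170 to 2.02 CPM, so it alone was female by this gene. As these are whole hearts, fewer cells of a type and less RNA per cell cannot be told apart.

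By position in the mouse genome (GRCm38, GENCODE M21), Dio2 occupies chr12:90724552-90738438 on the minus strand and Dio3 chr12:110279068-110281097 on the plus strand. Thra lies at chr11:98740638-98769006, Thrb at chr14:17660261-18038090 and Hr at chr14:70552212-70573548, all on the plus strand, and Slc16a10 at chr10:40033532-40142258 on the minus strand. The last 1075 bases of Thra are shared with the opposite-strand gene Nr1d1 (chr11:98767932-98775333), and whether the counting used strand was not given in the sources used here, so reads of that stretch may have been left out or shared and the level of Thra is uncertain to that extent. The 5' end of Dio2 shares 238 bases with the opposite-strand noncoding gene Gm26512.

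Promoter sequences were available for 4 of the 6 genes, all but Thra and Hr, in RefSeq (GRCm38.p6). Those of Dio2, Slc16a10 and Thrb are shown, Dio2 because 1 heart stood apart in its level, Slc16a10 because its level was lower in cKO hearts, and Thrb because it has separate annotated starts that gene-level counts sum. Each runs 5' to 3' within the 250 bases before a RefSeq start and is printed up to the first base that GENCODE M21 gives to an exon of the same gene. Capitals mark matches to 3 motifs sought on both strands, the thyroid hormone receptor motif AGGTCA, the cAMP response element TGACGTCA and the TATA box TATAAA.
Dio2, chr12:90739039-90739288, minus strand: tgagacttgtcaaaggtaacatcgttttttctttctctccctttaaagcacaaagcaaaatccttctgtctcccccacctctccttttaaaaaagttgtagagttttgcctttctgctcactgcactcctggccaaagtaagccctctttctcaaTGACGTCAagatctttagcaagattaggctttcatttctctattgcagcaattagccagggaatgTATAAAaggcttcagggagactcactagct
Thrb, first start, chr14:17660710-17660891, plus strand: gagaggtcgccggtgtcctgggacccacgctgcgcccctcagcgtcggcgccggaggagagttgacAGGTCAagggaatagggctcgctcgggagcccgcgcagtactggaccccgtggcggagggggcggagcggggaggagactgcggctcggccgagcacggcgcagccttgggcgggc
Thrb, second start, chr14:17981394-17981528, plus strand: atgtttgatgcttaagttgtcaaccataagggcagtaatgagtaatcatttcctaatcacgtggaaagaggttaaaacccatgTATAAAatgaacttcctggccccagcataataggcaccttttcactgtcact
Slc16a10, chr10:40142259-40142504, minus strand: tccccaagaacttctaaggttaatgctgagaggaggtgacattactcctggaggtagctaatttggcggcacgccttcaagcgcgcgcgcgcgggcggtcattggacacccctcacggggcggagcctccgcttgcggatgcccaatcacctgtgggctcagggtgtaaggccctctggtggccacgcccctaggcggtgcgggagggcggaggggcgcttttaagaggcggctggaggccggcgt
The Dio2 sequence held the cAMP response element between 95 and 88 bases before the start and a TATA box between 30 and 25 bases before it. This RefSeq start lies upstream of the GENCODE gene. The first Thrb start had 1 receptor motif, between 184 and 179 bases before it, and the second had a TATA box between 167 and 162 bases before it. The Slc16a10 window held none of these letters. Among 32841 promoter windows of the same length, 1.55% held the cAMP response element, 12.4% the TATA box and 14.0% the receptor motif. Both Thrb sequences lie within the GENCODE gene, whose earliest exons are upstream of the first. These matches are descriptions of letters, not of binding.

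Per kilobase of exon, which allows genes to be set side by side, Thra was the most abundant of the 6 in every group. Exon lengths were those of GENCODE M21, whereas the study took its gene annotation from Illumina iGenomes. Levels per kilobase, and the shares of Thrb built on them, are therefore approximate. In adult WT hearts Thra stood at 29.0 ± 1.30 CPM per kb (SD, n = 3). Thrb followed at 8.23 ± 1.05, Slc16a10 at 7.26 ± 0.430 and Hr at 6.62 ± 0.363 CPM per kb, and neighbours among these 3 overlapped heart by heart. Dio2 was at 0.580 ± 0.226 and Dio3 at 0.0279 ± 0.0269 CPM per kb. In P1 floxed hearts Thra stood at 40.5 ± 3.34 and Slc16a10 at 5.97 ± 0.563 CPM per kb. Thrb at 1.56 ± 0.170 and Dio2 at 1.35 ± 0.324 CPM per kb overlapped, Hr was at 0.569 ± 0.193 and Dio3 at 0.0107 ± 0.0105. Hr was thus among the middle genes in the adult and below Dio2 at P1.

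**Figure D1:**
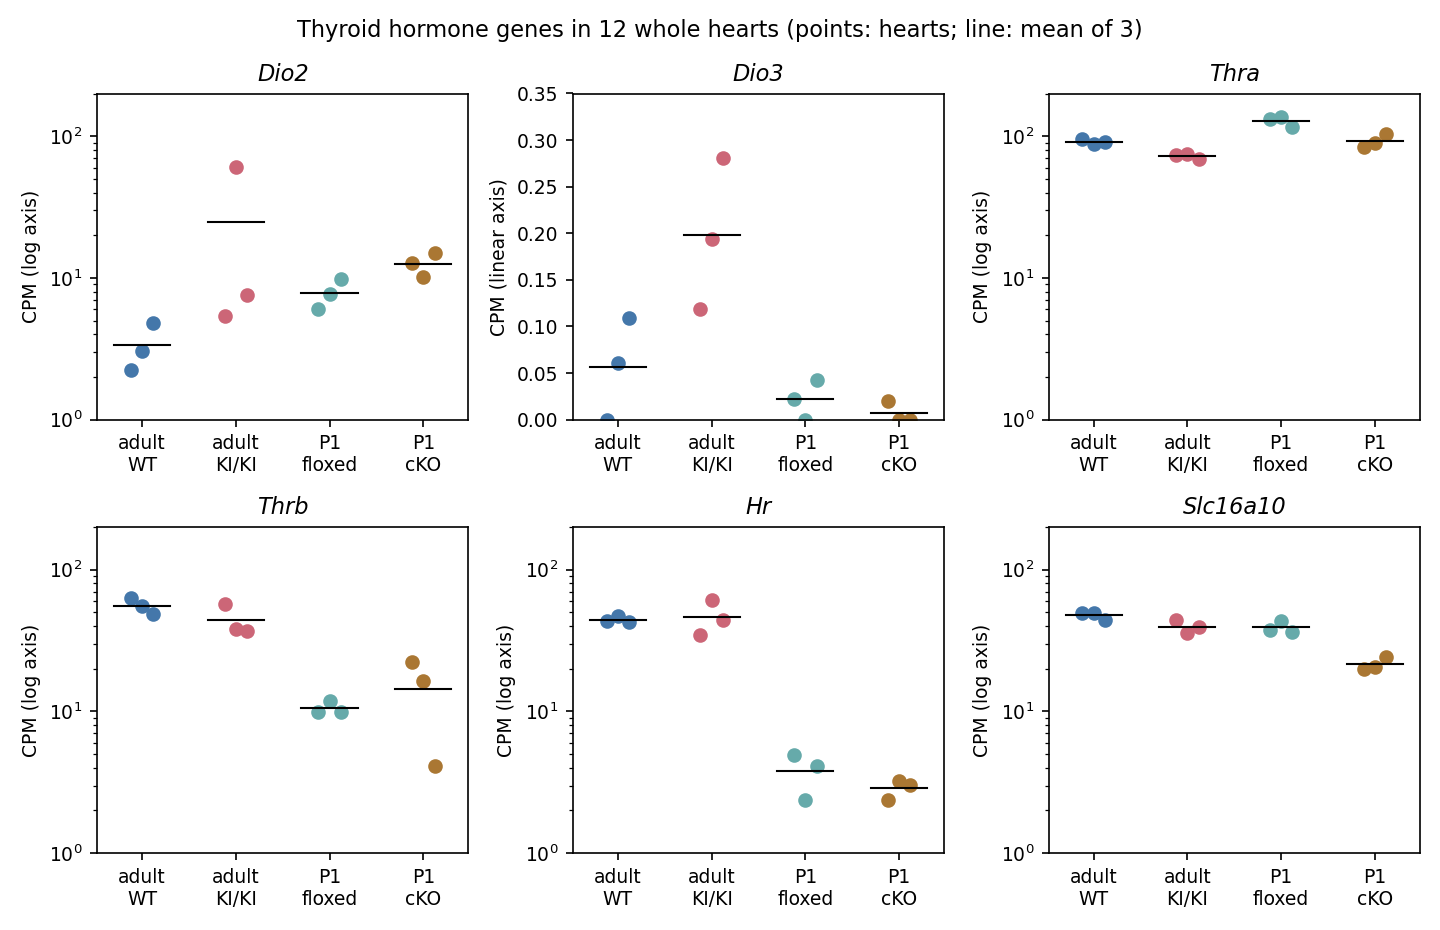
Level of each gene in CPM (log axis, except Dio3 on a linear axis) in the 12 hearts, 1 point per heart, with the line at the mean of 3. Each adult heart was above each P1 heart in Thrb (36.8 CPM or more against 22.3 or less) and in Hr (34.8 or more against 4.92 or less), and 1 KI/KI heart stands apart in Dio2 at 61.0 CPM.

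The first comparison asks how these genes differ between the adult and the newborn heart, with adult WT set against P1 floxed. The groups differ also in allele and cohort, so age, the floxed allele and cohort cannot be told apart. The deiodinase Dio2 was lower in the adult. It stood at 2.25, 3.05 and 4.81 CPM in adult WT hearts against 6.07, 7.69 and 9.83 CPM in P1 floxed hearts. The groups did not overlap, and the log2 fold change was -1.22 ± 0.30 (SE). WT replicate 3, the highest of the adult WT hearts, also had the highest summed adipose markers, 112 CPM against 14.3 to 63.8 in the other 11 hearts, and Ucp1, the uncoupling protein of brown fat, at 11.7 CPM. The part of adipose tissue in its Dio2 level was not tested, and without that heart the log2 fold change was -1.55. Dio3 gave 0, 2 and 4 counts in adult WT and 1, 0 and 2 in P1 floxed hearts, too few to pass the filter on low counts in any comparison. At 4 counts or fewer per heart, close to the limit of 3 counts, a difference was not detectable at this depth, and no fold is given.

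The receptors differed in opposite directions. Thra was at 96.0, 88.0 and 90.9 CPM in adult WT and at 131, 136 and 116 CPM in P1 floxed hearts, with a log2 fold change of -0.49 ± 0.08. Thrb was at 62.6, 55.2 and 48.5 CPM in adult WT and at 9.84, 11.9 and 9.91 CPM in P1 floxed hearts. Its log2 fold change was 2.39 ± 0.12, or 5.23-fold higher in the adult, with no overlap for either receptor. As a share of Thra plus Thrb per kilobase of exon, Thrb made up 20.0% to 23.4% in adult WT and 3.39% to 3.92% in P1 floxed hearts. Gene-level counts do not separate the splice forms of Thra, of which one does not bind T3.

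Hr showed the widest difference of the 5 genes that passed the filter. It was at 43.5, 47.1 and 42.5 CPM in adult WT and at 4.92, 2.39 and 4.14 CPM in P1 floxed hearts. The lowest adult heart thus lay far above the highest P1 heart, and the log2 fold change was 3.53 ± 0.24, or 11.6-fold. Slc16a10 was at 49.3, 49.3 and 44.4 CPM in adult WT and at 37.8, 43.5 and 36.5 CPM in P1 floxed hearts, with a log2 fold change of 0.27 ± 0.09. This small difference depended on scaling. Scaled to library totals alone, Slc16a10 was at 40.6 to 41.7 CPM in adult WT and 40.4 to 50.4 CPM in P1 floxed hearts, the groups overlapped and the sign turned to -0.13. With library totals the log2 fold change of Thra was -0.89, of Thrb 1.98 and of Hr 3.13.

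All 5 genes that passed the filter separated the groups without overlap, as did 70.7% of the 15183 genes tested, and the genes were chosen on these values. By the quasi-likelihood test of edgeR, with passing set at an adjusted p below 0.05, 31.4% of all genes were higher and 33.3% lower in the adult. The split of calls was 48.6% higher, and 25.5% higher with library totals alone, where the median of all genes moved from -0.04 to -0.45 (log2).

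**Figure D2:**
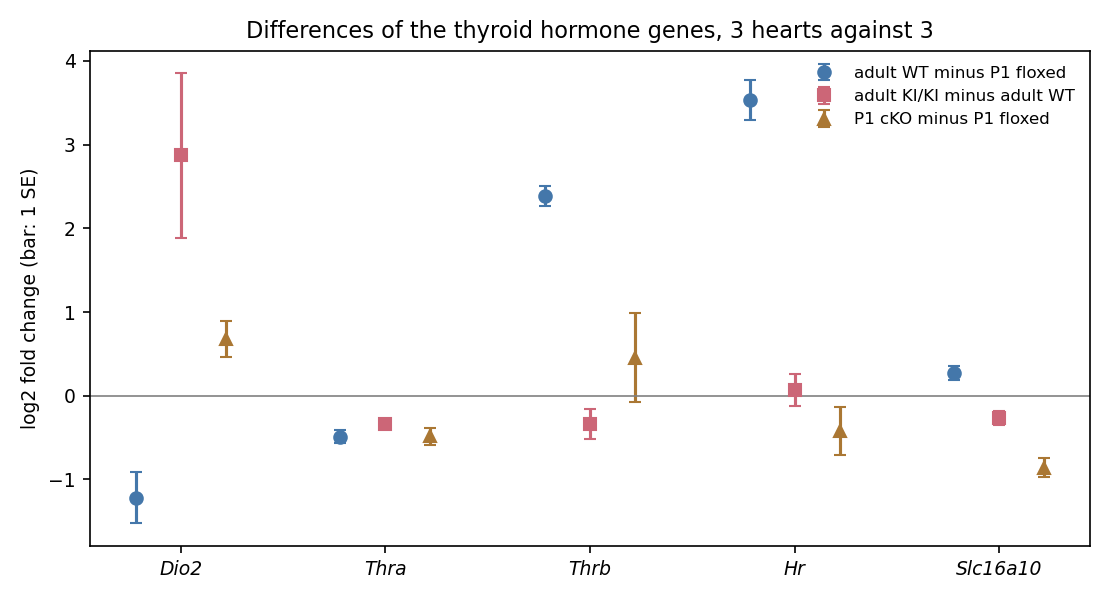
Log2 fold changes of the 5 genes that passed the filter, with bars of 1 SE, in 3 comparisons of 3 hearts against 3. Hr (3.53) and Thrb (2.39) stand highest for adult WT minus P1 floxed, and the bar of Dio2 for KI/KI minus WT is the longest (SE 0.98).

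The other genes of hormone transport and metabolism were mixed between adult and P1 hearts: of 10 tested among 14 listed, 3 were higher and 2 lower at an adjusted p under 0.05 (edgeR), with a median log2 fold change of -0.38 against -0.04 for all genes. Slc7a5, the light chain of an amino acid exchanger that also carries thyroid hormone, had a log2 fold change of -1.70 (adjusted p = 7.31e-05). Its heavy chain Slc3a2 was at 0.40 (adjusted p = 0.00889), which came to -0.00 with library totals alone. The organic anion transporter Slco2b1 was higher in the adult by 1.59 (adjusted p = 0.00016), and the sulfotransferase Sult1a1 by 0.94 (adjusted p = 0.028), a call that held in 2 of 6 fits with 1 heart left out. With library totals alone the list had 1 gene higher and 6 lower. Dio1, the deiodinase of liver and kidney, gave at most 0.130 CPM in any heart, and the carrier Slc17a4 and the plasma carrier Serpina7 gave at most 0.0451 CPM each.

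Among receptor partners and coregulators, 8 of 17 were higher and 4 lower in the adult, with a median of 0.14. With library totals 2 were higher and 9 lower, so the direction of most of these small differences depended on scaling. Rxrg, a retinoid X receptor that pairs with the hormone receptors, did not: it rose by 4.88 (SE 0.12, adjusted p = 2.55e-07), from 2.05 to 2.45 CPM in P1 floxed to 58.8 to 74.5 CPM in adult WT hearts. The coactivator Ncoa3 was at 0.70 (adjusted p = 0.000453) and Ncoa6 at -0.66 (adjusted p = 7.06e-05).

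Genes that T3 is known to induce in heart were higher in the adult in 12 of 18 cases and lower in none, with a median log2 fold change of 1.37. With library totals 11 were higher and 1 lower. Thrsp, a classical hormone-responsive gene, was highest by size at 4.19 (SE 0.26, adjusted p = 8.54e-06). The pacemaker channel Hcn2 followed at 3.53 (adjusted p = 3.11e-05), the potassium channels Kcnd2 at 3.23 (adjusted p = 7.89e-06) and Kcnd3 at 2.78 (adjusted p = 2.6e-05). The glucose transporter Slc2a4 was at 2.81 (adjusted p = 6.93e-07) and the transcription factor Klf9 at 2.32 (adjusted p = 8.61e-06). The calcium pump Atp2a2 rose by 1.67 (adjusted p = 1.63e-05). In the same comparison 4 of 6 cardiomyocyte markers were higher (median 0.36), as were 3 of 3 macrophage markers (median 1.30) and 4 of 5 adipose markers (median 4.88), and their part in the list counts was not tested. Of 8 genes that T3 is known to repress, 5 were lower and 1 higher, with a median of -1.15. Tnni1, the slow troponin I of the fetal heart, fell from 1069 to 1089 CPM in P1 floxed to 1.01 to 1.29 CPM in adult WT hearts, a log2 fold change of -9.87 (adjusted p = 9.39e-09). Kcne1, a potassium channel subunit, was at -3.62 (adjusted p = 0.000114) and the slow myosin Myh7 at -1.21 (adjusted p = 0.00644). Pln, the inhibitor of the calcium pump, was higher by 1.15 (adjusted p = 2.64e-05), opposite to the name of its list. With library totals 1 was higher and 6 were lower. Both lists also hold genes of cardiac maturation, and the part of thyroid hormone in these differences was not tested.

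**Figure D3:**
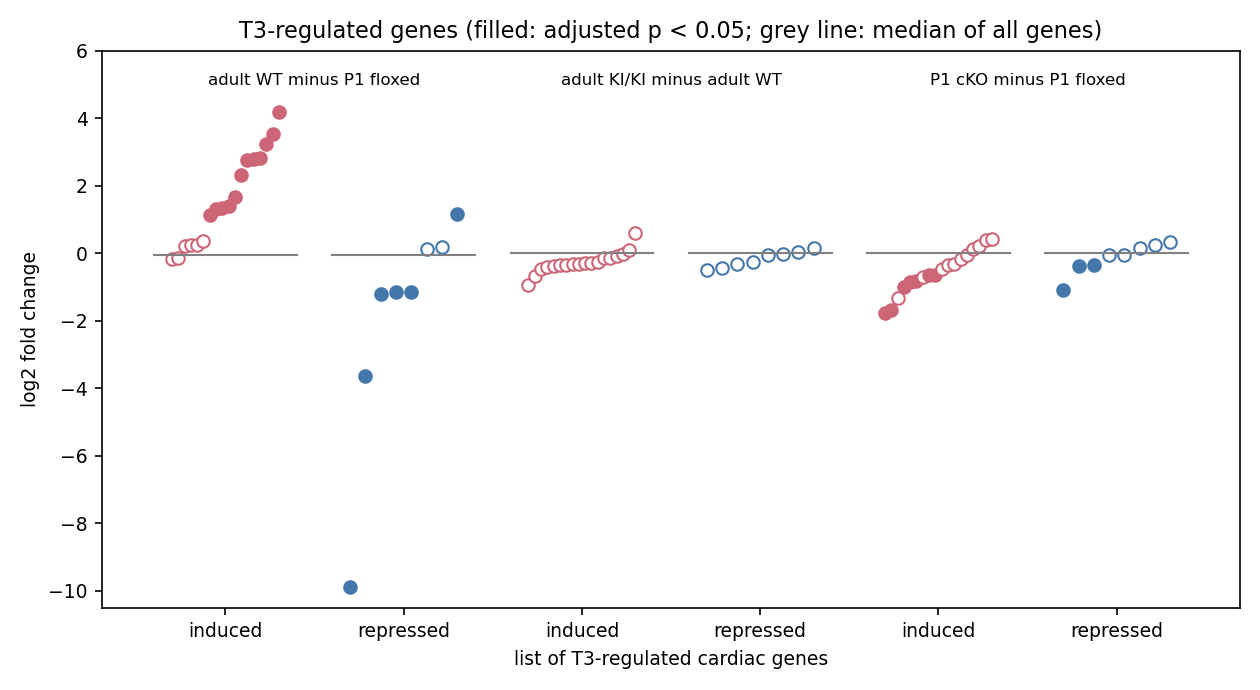
Log2 fold changes of 18 T3-induced and 8 T3-repressed cardiac genes in the 3 comparisons, 1 point per gene, filled where the adjusted p (edgeR) was under 0.05, with a grey line at the median of all genes. Filled points lie above the line for 12 induced genes in adult WT minus P1 floxed, are missing for KI/KI minus WT, and lie below it for 7 induced and 3 repressed genes in cKO minus floxed.

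Dio3 closes the imprinted Dlk1-Dio3 region of chromosome 12, where a paternally expressed set (Dlk1, Rtl1, Dio3) alternates with maternally expressed noncoding RNAs (Meg3, Rian, Mirg). All 6 tested genes of this list were lower in the adult, with a median of -3.23. Dlk1 stood at 66.4 to 91.0 CPM in P1 floxed and 0.225 to 0.245 CPM in adult WT hearts, a log2 fold change of -8.35 (adjusted p = 1.85e-07). Meg3 was at -3.29 (adjusted p = 4.63e-06), Rtl1 at -3.36 (adjusted p = 5.99e-05) and Rian at -3.17 (adjusted p = 3.39e-06). Dio3 did not share this high level at P1. The divergent noncoding neighbour Dio3os (chr12:110275385-110278172, minus strand) gave 40 counts over the 3 adult WT hearts and 1 count over the 3 P1 floxed hearts.

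The second comparison asks what the Lemd2 change does in the adult, with KI/KI set against WT. No gene passed an adjusted p under 0.05 in edgeR (0% of 14592). At an unadjusted p under 0.05 the test called 2331 genes (16%), and DESeq2 called 518 of 14616 (3.54%) at an adjusted p under 0.05. The groups of 22.4% of genes did not overlap. Dio2 stood at 5.42, 61.0 and 7.59 CPM in KI/KI replicates 4, 5 and 6, against 2.25 to 4.81 CPM in WT. Each KI/KI heart was above each WT heart, and replicate 5 stood apart from the others. The log2 fold change was 2.87 ± 0.98, and 0.94 without replicate 5. That heart also had the highest summed atrial markers of the adult hearts, 9971 CPM against 3882 to 6636. Nppa, a natriuretic peptide that stressed ventricles also express, gave 7564 CPM of that sum, and without it the sum was 2408 CPM against 1730 to 1972. The same heart had the lowest ventricular markers, 7785 CPM against 10622 to 12908, and the highest fibroblast markers, 1968 CPM against 1191 to 1506. The part of these in its Dio2 level was not tested. Its adipose markers, at 63.8 CPM, were below those of WT replicate 3. Dio3 gave 4, 8 and 10 counts in KI/KI and 0, 2 and 4 in WT hearts, which touch at 4 counts.

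Thra was at 73.6, 74.3 and 69.4 CPM in KI/KI hearts, each below the lowest WT heart at 88.0 CPM, with a log2 fold change of -0.33 ± 0.06. It came to -0.26 with library totals alone. Thrb was at 56.8, 38.0 and 36.8 CPM in KI/KI hearts and overlapped WT, at -0.33 ± 0.18. Hr was at 34.8, 60.8 and 43.9 CPM, on both sides of the WT hearts, at 0.07 ± 0.19. It was -0.17 without replicate 5, the heart highest in Hr as in Dio2. Slc16a10 was at 43.8, 35.7 and 39.3 CPM, each below the lowest WT heart at 44.4 CPM, at -0.26 ± 0.08. Of the 5 genes that passed the filter, 1 was thus higher and 2 were lower without overlap. Of all 14592 genes tested, 22.4% did not overlap, and the 5 genes were chosen with their values known.

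No gene of the wider lists passed in KI/KI hearts. An unadjusted p under 0.05 was found for 2 of 10 transport genes, 5 of 17 coregulators, 2 of 8 T3-repressed genes and 0 of 5 genes of the imprinted region, and DESeq2 called none of these. Of the T3-induced genes, 16 of 18 had a log2 fold change below 0, with a median of -0.30 against 0.00 for all genes. In 6 of these 18 the unadjusted p was under 0.05, among them Ucp3, which was higher at 0.59, and DESeq2 called 1, the pacemaker channel Hcn4, at -0.93 (edgeR adjusted p = 0.236, DESeq2 adjusted p = 0.0164). The 8 T3-repressed genes had a median of -0.15 and the 17 coregulators -0.08, so the medians of induced and repressed genes lay on the same side of 0. The cardiomyocyte markers were also below 0 in 6 of 6 cases, with a median of -0.15. In the transport list, the cytosolic T3-binding protein Crym at 1.28 (adjusted p = 0.24) and the carrier Ttr at 1.18 (adjusted p = 0.272) had KI/KI hearts all above WT. These were 2 of 10 tested genes of the list, against 22.4% of all genes without overlap. Both were low, with 23 and 29 counts over the WT hearts. In Ttr the nearest pair was 0.447 CPM in KI/KI and 0.427 in WT.

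The third comparison sets P1 cKO, with loss of Lemd2 in cardiomyocytes, against P1 floxed. The cKO hearts also carried the Myh6-Cre transgene and the floxed hearts did not, so loss of Lemd2 and presence of Cre cannot be told apart. In edgeR 9.15% of 15317 genes were higher and 7.31% lower at an adjusted p under 0.05, and the groups of 39.7% did not overlap. These counts rest on single hearts: without floxed replicate 1 they were 68 higher and 61 lower, against 1401 and 1119 with all hearts. They were 289 and 334 without floxed replicate 2, and 279 and 203 without cKO replicate 5. Dio2 was at 12.7, 10.1 and 14.9 CPM in cKO replicates 4, 5 and 6 and at 6.07, 7.69 and 9.83 CPM in floxed hearts. Each cKO heart was above each floxed heart, the nearest pair being 10.1 and 9.83 CPM, and the log2 fold change was 0.68 ± 0.21. Scaled to library totals alone the groups overlapped, with cKO replicate 5 at 10.87 and floxed replicate 3 at 10.89 CPM, so the separation depended on scaling. Dio3 gave 1 count over the 3 cKO hearts. Fibroblast markers summed to 1742 to 2225 CPM in cKO against 1515 to 1617 in floxed hearts. Col1a1 made up most of these sums, at 1259 to 1655 CPM in cKO against 979 to 1098 in floxed hearts. Of the 5 markers, 2 had a log2 fold change above 0 and 3 below 0, with a median of -0.14. The part of these markers in the Dio2 level was not tested.

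Thra was at 83.3, 88.8 and 103 CPM in cKO hearts, below each floxed heart (116 to 136 CPM), with a log2 fold change of -0.48 ± 0.10. Thrb was at 22.3, 16.5 and 4.13 CPM in cKO replicates 4, 5 and 6, above and below the floxed hearts at 9.84 to 11.9 CPM, with 0.45 ± 0.53. Leaving out cKO replicate 4 gave -0.04 and leaving out replicate 6 gave 0.88. The atrial myosin light chain Myl4 followed the same order, at 1739, 1161 and 288 CPM in these hearts and 456 to 748 CPM in floxed hearts, and so did the summed atrial markers at 9795, 6781 and 2720 CPM, against 1838 to 3070 CPM in floxed hearts. Nppa made up most of these sums. Without it they were 2996, 1940 and 511 CPM in cKO and 980 to 1574 CPM in floxed hearts, so that replicates 4 and 5 were above and replicate 6 below the floxed hearts, as in Thrb. Myl4 and Myl7 made up most of the sums without Nppa. Of the single genes, Myl4 and Bmp10 had the positions of Thrb. Sln, Myl7 and Tbx5 kept the order, but replicate 5 was not above the floxed hearts. It was at 23.1 CPM in Sln and 64.8 in Tbx5, below every floxed heart (24.8 to 37.3 and 71.7 to 91.0 CPM). In Myl7 it was at 574 CPM, within the floxed hearts at 347 to 606. In Tbx5 replicate 4 was also below the highest floxed heart, at 76.7 against 91.0 CPM. Nr2f2 of the same list did not follow the order, at 55.5, 42.0 and 49.1 CPM. The part of atrial tissue in the Thrb level was not tested. Replicate 4, the highest, was also the female heart. Hr was at 2.36, 3.21 and 3.01 CPM and overlapped the floxed hearts at 2.39 to 4.92 CPM, with -0.42 ± 0.29.

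**Figure D4:**
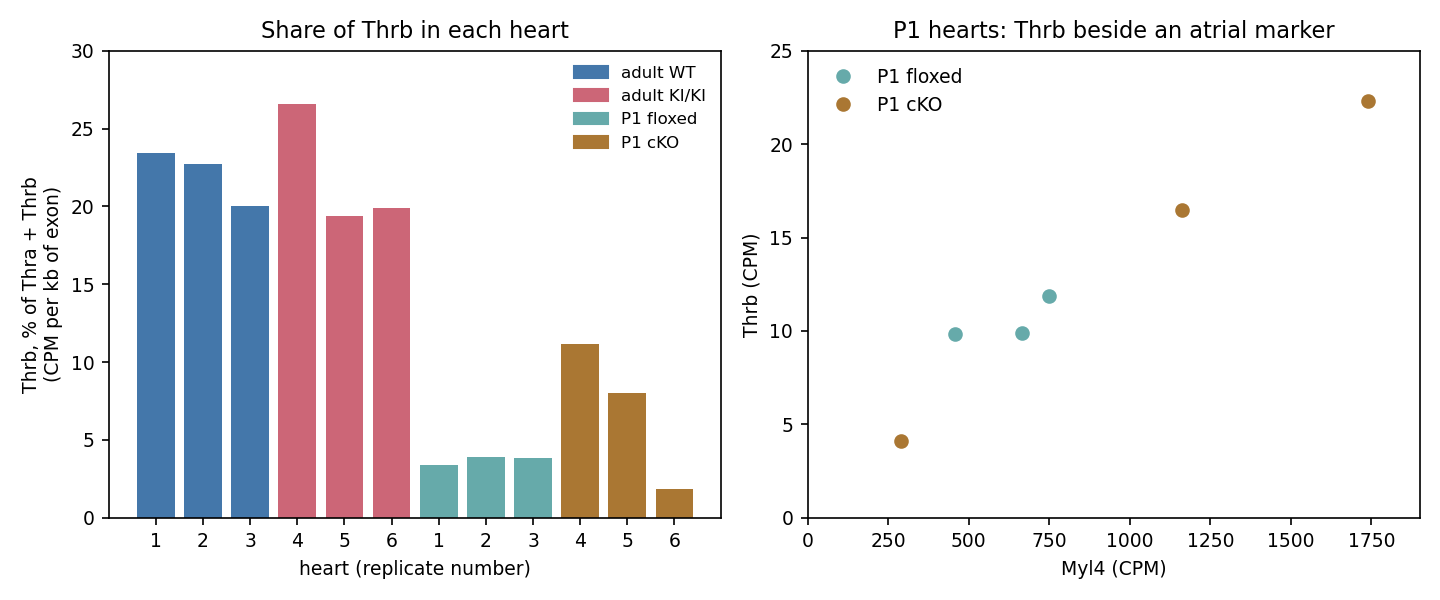
Left, Thrb as a percentage of Thra plus Thrb (CPM per kb of exon) in each heart, 1 bar per heart, from 0. Right, Thrb against the atrial marker Myl4 in the 6 P1 hearts, both in CPM, where the cKO hearts span 4.13 to 22.3 CPM of Thrb and the floxed hearts 9.84 to 11.9.

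Slc16a10, the transporter, was lower in cKO hearts. It was at 20.1, 20.7 and 24.4 CPM in cKO and 37.8, 43.5 and 36.5 CPM in floxed hearts. The highest cKO heart lay well below the lowest floxed heart, and the log2 fold change was -0.86 ± 0.11, or 1.81-fold lower, staying between -0.94 and -0.79 when any 1 heart was left out. Over all 12 hearts its order with TMM scaling was adult WT above adult KI/KI and P1 floxed, which overlapped, above cKO. With library totals alone P1 floxed hearts (40.4 to 50.4 CPM) overlapped adult WT (40.6 to 41.7) and lay above KI/KI (34.2 to 38.8). The cKO hearts were again lowest, at 22.2 to 26.9 CPM. Of the 5 genes that passed the filter in cKO hearts, 1 was higher (Dio2, with TMM scaling but not with library totals alone) and 2 were lower without overlap. Of all 15317 genes tested, 39.7% did not overlap, and the 5 genes were chosen with their values known.

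Of the other transport and metabolism genes, 3 of 10 rose in cKO hearts and none fell, with a median of 0.17. Slc7a5 was at 46.8, 57.8 and 37.4 CPM in cKO and 23.1 to 29.5 CPM in floxed hearts, a log2 fold change of 0.80 (SE 0.18, adjusted p = 0.0294). Slc3a2 was higher by 0.70 (adjusted p = 0.0208) and Crym by 1.71 (adjusted p = 0.0285), the latter from 0.203 to 0.456 CPM in floxed to 0.851 to 1.10 CPM in cKO hearts. When 1 heart was left out, Slc3a2 and Crym passed in 2 of 6 fits and Slc7a5 in 1. Of 17 coregulators 2 fell, the coactivators Ncoa1 at -0.53 (adjusted p = 0.00831) and Ncoa2 at -0.58 (adjusted p = 0.0172).

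Of the T3-induced genes, 7 of 18 fell in cKO hearts and none rose, with a median of -0.55 against -0.00 for all genes. Ucp3, an uncoupling protein of muscle mitochondria, fell by 1.77 (SE 0.35, adjusted p = 0.0206) and Kcnd3 by 1.67 (adjusted p = 0.0208). Atp2a2 fell by 0.86 (adjusted p = 0.00881), the calcium release channel Ryr2 by 0.82 (adjusted p = 0.0122), Slc2a4 by 0.65 (adjusted p = 0.0478) and the coactivator Ppargc1a by 0.63 (adjusted p = 0.0231). Of the T3-repressed genes, 3 of 8 also fell: Pln by 1.09 (adjusted p = 0.00878), Tnni1 by 0.38 (adjusted p = 0.025) and the adenylyl cyclase Adcy6 by 0.36 (adjusted p = 0.0277). None of the repressed genes rose. In the same hearts macrophage markers summed to 55.9 to 83.5 CPM in cKO against 38.0 to 43.1 in floxed hearts, with 3 of 3 tested markers above 0 (median 1.03) and 2 passing. Ventricular markers summed to 6007, 7339 and 9202 CPM in cKO against 7647 to 9373 in floxed hearts. Myl2 and Myl3 made up most of that sum and overlapped. Hey2, at 21.9 to 27.0 against 82.6 to 104 CPM, and Irx4, at 29.3 to 53.0 against 74.0 to 84.6, were lower without overlap. The part of these markers in the list counts was not tested. Atp2a2, Ryr2 and Pln passed in 5 of 6 fits with 1 heart left out, Ppargc1a in 4, Ucp3 and Kcnd3 in 3, Adcy6 and Tnni1 in 2, and Slc2a4 in 1. Without floxed replicate 1 no gene of either list passed. Without floxed replicate 2, 3 induced genes and 1 repressed gene passed, and without cKO replicate 5, 2 induced genes and 1 repressed gene. In the imprinted region Dlk1 fell by 0.72 (adjusted p = 0.02), Begain rose by 0.85 (adjusted p = 0.0322), and with 1 heart left out Dlk1 passed in 3 of 6 fits and Begain in 0. Meg3 was at 0.10 (adjusted p = 0.795).

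A direct test of the difference between the cKO effect and the KI/KI effect passed for 2.51% of 15729 genes. The genes studied here were at -2.19 ± 1.04 for Dio2, -0.14 ± 0.12 for Thra and 0.79 ± 0.60 for Thrb, given without a test. Hr was at -0.48 ± 0.35 and Slc16a10 at -0.59 ± 0.15 (log2 difference ± SE, cKO effect minus KI/KI effect). Age, the kind of allele, the cells that carry it and the Cre transgene differ between the models and cannot be told apart.

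The genes whose level followed each member most closely over the 12 hearts, by the root mean square difference of centred log2 CPM among 15729 genes, were as follows. For Dio2 they were Padi4 (0.598), Tnmd (0.610) and Nkd2 (0.632). For Thra they were Wdr13 (0.0966), Gab1 (0.107) and Slc35e2 (0.109). Thrb was nearest to Chrm2 (0.254), the muscarinic receptor of atrial and pacemaker cells, then to Gstm1 (0.303) and Ifi204 (0.393). Hr was nearest to 9230112J17Rik (0.274) and Samd12 (0.314), and Slc16a10 to Pitpnc1 (0.0830), Rdh14 (0.0948) and Atp5sl (0.110). Small values partly reflect genes that vary little.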

How the data were processed

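RNA-seq was done on 12 whole hearts, 3 per group, at 1 library per mouse. Per the labels and the study's methods, the authors used Trim Galore for trimming, STAR 2.7.2b for alignment (genome build mm10) and HTSeq for counting per gene. The deposited values are raw counts per gene symbol, neither normalised nor filtered, so depth and composition were left to the fits below. No column of any other sample was present.

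Counts were tested with edgeR 4.0.16 (R 4.3.3) by the quasi-likelihood test, with TMM scaling, filterByExpr and robust dispersions, on the 6 libraries of each comparison, and p-values were adjusted by Benjamini-Hochberg over all genes tested. The difference between genotype effects used all 12 libraries. The test was tested on simulated data. No test was made of the 6 genes themselves. These genes and all gene lists were chosen with earlier results of these data known. Of each list at most 8 genes that passed were named per comparison, by size of change, besides genes that were barely detected, and per member the 3 nearest genes. Genes named without passing, and the atrial and ventricular marker lists, were chosen after their values were seen.

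Alternatives were leaving low counts in, RLE size factors, DESeq2 1.42.0, 1 fit over all libraries, a minimum change of 2-fold, leaving out each heart, the replicate block and, added after seeing the data, library totals without scaling. Replicates within a group differed by more than sampling noise (chi-square per degree of freedom 19.3 to 138). Marker Adgre1 was not analysed here. Some genes that meet the naming rule are not reported here. Replicate numbers shared by adult WT and P1 floxed hearts did not pair them (r of deviations -0.25, -0.32 and -0.56). Matching by symbol to GENCODE M21 gave positions for all 6 genes.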

Additional observations from a re-analysis of the deposited data

Results flagged for a closer look

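In the lists of hormone-related genes, 2 genes had an effect of the cKO that differed from the effect of the KI/KI by the edgeR interaction test over 12 hearts. The lists held 14 transport and metabolism genes, 17 coregulators, 18 T3-induced and 8 T3-repressed genes, 7 genes of the imprinted region and Nr1d1, not all tested. Of all 15729 genes tested, 2.51% passed. With 1 heart left out, the number passing over all genes ran from 50 to 935. Slc3a2, the heavy chain of amino acid and thyroid hormone exchangers, differed by 0.71 (log2, SE 0.16, adjusted p = 0.0488), with 61.8, 60.1 and 48.1 CPM in cKO hearts against 31.1 to 39.1 CPM in floxed hearts, and 43.0 to 47.7 CPM in KI/KI against 41.9 to 49.3 CPM in WT hearts. Ucp3, the mitochondrial uncoupling protein of muscle, differed by -2.36 (SE 0.46, adjusted p = 0.0324), with 12.6, 6.65 and 14.9 CPM in cKO hearts against 26.2 CPM in the lowest floxed heart, and 51.2 to 53.5 CPM in KI/KI against 20.9 to 42.5 CPM in WT hearts.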

How the results depend on the processing

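Of 170 alternative values for the 15 log2 fold changes of the studied genes, 164 moved by less than the spread between replicates, 5 moved by more and 1 moved by more with its sign turned. The sign turned in 3 in all, the others within that spread: Hr in KI/KI without KI/KI replicate 5 (-0.17) and Thrb in cKO without cKO replicate 4 (-0.04). The spread is the pooled SD of log2 CPM within groups, and leaving out 1 of 3 hearts can hardly move a group mean by more. For those fits the count of values within the spread is therefore no measure of stability. With library totals alone, adult WT minus P1 floxed gave Slc16a10 -0.13, Thra -0.89, Thrb 1.98 and Hr 3.13, with 2791 genes higher and 8145 lower, and Thra in KI/KI gave -0.26. This shift moved all genes together. Leaving out 1 heart took Dio2 in KI/KI from 0.94 to 3.34.

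Of 275 alternative counts, 208 stayed within 1.5 times and 67 did not. For adult WT minus P1 floxed, a 2-fold minimum left 2017 genes higher and 2106 lower. With a replicate block, which shares only a number, 4411 were higher and 4555 lower. For KI/KI, DESeq2 called 306 higher and 212 lower, no filter 2 higher, and all libraries in 1 fit 18 and 9. Leaving out 1 heart gave 0 to 36 higher and 0 to 16 lower, and the T3-induced genes 0 to 1, with 1 by DESeq2. For cKO, 425 were higher and 261 lower past 2-fold, 1681 lower by DESeq2 and 1820 with all libraries. Leaving out 1 heart gave 68 to 1887 higher and 61 to 1498 lower, 0 to 9 T3-induced and 0 to 4 T3-repressed genes, all lowest without floxed replicate 1. Past 2-fold, 3 and 1 of these lists were left. The share of higher calls in cKO was 55.6%, and 43.7% with library totals. The difference between effects gave 1325 by DESeq2, 159 past 2-fold and 50 to 935 with 1 heart left out. The cause of these moves was not tested. Dio3 lay under the filter throughout.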
